A study of Mus musculus with 10 samples.

Results

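Oestrogen receptors and the genes known to respond to them were examined in mouse jejunum, a segment of the small intestine, as a set of 8 genes among the 55414 gene identifiers measured. The set holds the oestrogen receptors Esr1, Esr2 and Gper1, the oestrogen-related receptors Esrra and Esrrg, and the oestrogen-responsive genes Pgr, Greb1 and Nrip1. The set was chosen by the difference in Esr1 counts between the genotypes compared here, with its receptors and responsive genes added by name, so the genotype values of these 8 genes are given as a description, with intervals for their precision and no p-values. All 8 were found in the count tables and 7 passed the filter on low counts, the exception being Esr2.

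The libraries came from male C57BL/6J mice, 5 RetSat ko (RetSat flox/flox with villin-Cre-ERT2) and 5 control (RetSat flox/flox without this transgene). All carried floxed alleles of the retinol saturase gene, received intraperitoneal tamoxifen for 5 days and were then kept for 14 weeks on a high-fat diet (60 kcal% fat). The sources used here do not give their age. The villin promoter directs the transgene to the intestinal epithelium, so other cells of the tissue keep the floxed gene intact. Cre-ERT2 is a recombinase joined to an altered hormone-binding domain of oestrogen receptor alpha, so the RetSat ko mice carry a construct that resembles part of Esr1 and the control mice do not. Loss of Retsat and presence of the transgene go together in these groups and cannot be told apart. Total counts lay between 102844680 and 128730695 per library. Retsat averaged 19.6 ± 7.76 CPM in RetSat ko and 440.6 ± 101 CPM in control (SD, n = 5 each; CPM, counts per 1000000 counts of the library, scaled by TMM), with RetSat ko 5 at 33.4 CPM and the other RetSat ko libraries at 15.4 to 16.8 CPM. Markers of jejunal enterocytes summed to 42531 to 64983 CPM in RetSat ko and 43156 to 72498 CPM in control, and 8 markers listed for other gut segments to 264.3 to 318.1 CPM in RetSat ko and 263.1 to 345.5 CPM in control. Nearly all of the second sum was Gata4 (189.2 CPM in RetSat ko and 198.7 CPM in control) and Onecut2 (90.3 CPM in RetSat ko and 95.9 CPM in control), while the ileal bile acid transporter gene Slc10a2 averaged 1.33 CPM in RetSat ko and 1.66 CPM in control, Fabp6 0.207 CPM in RetSat ko and 0.147 CPM in control, and the means of Gkn1, Gkn2, Muc5ac and Car1 did not exceed 0.00690 CPM. The labels do not state that each library came from a different mouse, so errors and p-values describe the spread between these samples.

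Oestrogen receptor alpha (Esr1) and beta (Esr2) are nuclear receptors that bind oestradiol in the cytoplasm or nucleus, pair up and attach to response elements in DNA, where co-activators and co-repressors join them. Tamoxifen binds the same pocket and acts as an agonist or an antagonist depending on the tissue. Gper1 is a receptor of the cell membrane that signals through G proteins. Esrra and Esrrg resemble the oestrogen receptors in sequence but do not bind oestradiol, and they control genes of mitochondrial energy metabolism, which makes them prominent in tissues with a high oxidative demand.

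The promoter windows of 4 genes are shown because the comparison turns on these genes: Esr1 itself, the classical responsive genes Greb1 and Pgr, and Vil1, the villin gene whose promoter drives the transgene. Each runs from 250 bases before to 50 bases after a transcription start, 5′ to 3′ on the gene's strand, from RefSeq (GRCm38.p6, an older build than the GRCm39 of the counts; the start farthest upstream where a gene has several), and capitals mark GGTCA on either strand, a single arm of the oestrogen response element. The windows are chr10:4611739-4612038 (plus strand) for Esr1, chr12:16800837-16801136 (minus strand) for Greb1, chr9:8899583-8899882 (plus strand) for Pgr and chr1:74409134-74409433 (plus strand) for Vil1.
Esr1: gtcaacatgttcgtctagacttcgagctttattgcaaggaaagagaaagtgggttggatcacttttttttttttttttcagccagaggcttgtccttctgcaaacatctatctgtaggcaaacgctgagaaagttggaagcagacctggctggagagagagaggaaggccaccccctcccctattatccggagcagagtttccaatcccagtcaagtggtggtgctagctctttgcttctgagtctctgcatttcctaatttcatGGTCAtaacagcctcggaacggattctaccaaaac
Greb1: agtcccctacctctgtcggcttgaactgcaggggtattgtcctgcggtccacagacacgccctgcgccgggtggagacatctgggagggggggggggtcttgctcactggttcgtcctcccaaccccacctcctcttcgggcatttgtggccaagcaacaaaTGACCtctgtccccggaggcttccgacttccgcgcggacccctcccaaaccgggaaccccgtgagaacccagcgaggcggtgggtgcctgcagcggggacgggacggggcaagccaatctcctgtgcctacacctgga
Pgr: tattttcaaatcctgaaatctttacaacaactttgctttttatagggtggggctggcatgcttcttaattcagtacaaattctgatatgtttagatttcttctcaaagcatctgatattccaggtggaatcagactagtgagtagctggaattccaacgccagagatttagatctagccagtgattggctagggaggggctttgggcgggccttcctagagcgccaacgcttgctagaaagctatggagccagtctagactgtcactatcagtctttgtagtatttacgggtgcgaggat
Vil1: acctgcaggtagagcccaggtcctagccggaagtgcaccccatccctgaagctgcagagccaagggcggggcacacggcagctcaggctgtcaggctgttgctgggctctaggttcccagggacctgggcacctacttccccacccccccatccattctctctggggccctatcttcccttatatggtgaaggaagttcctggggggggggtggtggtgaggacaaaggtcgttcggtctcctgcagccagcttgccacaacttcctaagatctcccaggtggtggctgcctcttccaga
The RefSeq table held 14 windows for the 8 genes. The full palindrome GGTCANNNTGACC was in 0 of these 14 and in 0.07% of all 32851 windows. The arm GGTCA was in 6 of the 14, spread over 5 genes (Esr1, Esr2, Greb1, Nrip1 and Esrrg), and in 40.5% of all windows. Not every window of these 5 genes held the arm. The element bound by oestrogen-related receptors, TCAAGGTCA, which contains that arm, was in 0 of the 14 and in 0.423% of all windows. Both strands were searched, and a window without a match says nothing of elements farther away.

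Esr1 (ENSMUSG00000019768.17, chromosome 10, 4561593 to 4955614, plus strand, GRCm39) stood far above its control level in every RetSat ko library, while no other gene of the set separated the genotypes. Its raw counts were 4676, 3692, 4215, 5255 and 5100 in RetSat ko 1 to 5, against 74, 72, 53, 74 and 66 in control 1 to 5. On the CPM scale these were 45.8, 33.3, 36.2, 39.4 and 36.8 in RetSat ko, against 0.686, 0.553, 0.496, 0.639 and 0.606 in control. The lowest RetSat ko library was thus well above the highest control library, and RetSat ko 1 was the highest of all. The mean was 38.3 ± 4.73 CPM in RetSat ko and 0.596 ± 0.0742 CPM in control (SD, n = 5 each), a ratio of means of 64.2 and a log2 fold change of 6.00 ± 0.126 (SE, edgeR), with a 95% interval of 5.73 to 6.28. Summed over the group, the control libraries held 339 Esr1 counts (exact 95% Poisson interval 303.9 to 377.1, counting error only), so that a low level was measured without the transgene too.

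**Figure D1:**
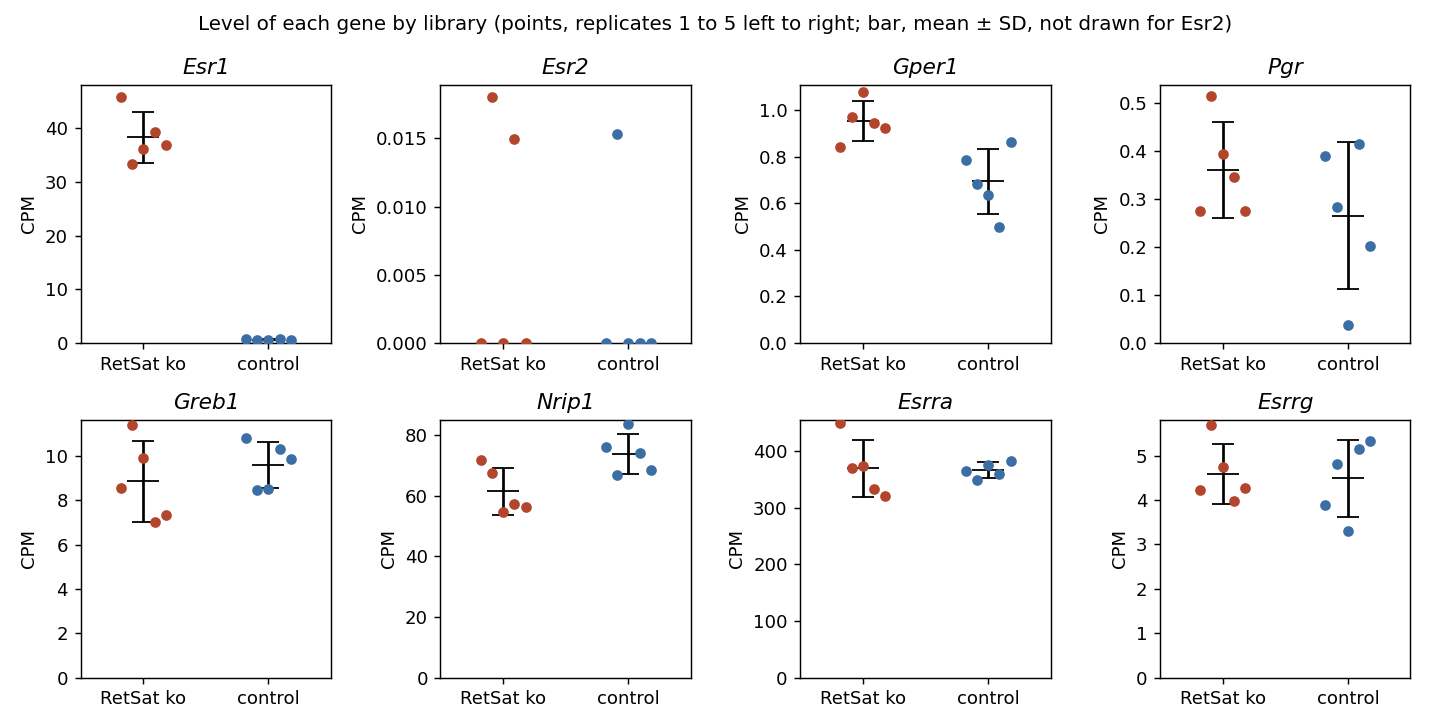
CPM of each of the 8 genes in the 5 RetSat ko and 5 control libraries, with 1 panel per gene, each on its own linear axis from 0. Points are libraries, replicates 1 to 5 from left to right, and bars are mean ± SD except for Esr2; the genotypes are apart for Esr1 (33.3 to 45.8 CPM in RetSat ko, 0.496 to 0.686 CPM in control) and overlap for the other 7.

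The counts of a gene were summed over all of its annotated exons, which for Esr1 are 19 separate blocks of 13661 bases in all. The coding part is 1797 bases in 8 exons in 3 of its 4 coding transcripts in GENCODE M21, and the hormone-binding domain takes up only a portion of that. Gene counts do not record which exons the reads lay on, so reads of the transgene and of the endogenous gene cannot be told apart. Of 13697 distinct 50-base stretches in Esr1 transcripts of GENCODE M21, 46 (0.336%) were also found in transcripts of another gene, all of them in Ppp2r5a. No annotated gene overlapped the Esr1 locus.

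Among the RetSat ko libraries Esr1 varied less relative to Vil1 than it did in CPM. Vil1 encodes villin, the actin-bundling protein of microvilli. Its level was 2980, 2137, 2404, 2372 and 2275 CPM in RetSat ko 1 to 5. In control 1 to 5 it was 2854, 2673, 3517, 3152 and 2843 CPM. Its log2 fold change was -0.31 (edgeR adjusted p = 0.364, below the control mean in 5 of 5 RetSat ko libraries). For every 1000 Vil1 counts there were 15.4, 15.6, 15.0, 16.6 and 16.2 Esr1 counts in RetSat ko 1 to 5, and 0.141 to 0.240 in the control libraries. In RetSat ko the coefficient of variation was 12.4% for Esr1 in CPM and 4.00% for Esr1 relative to Vil1. In control it was 12.4% and 18.2%, from 53 to 74 Esr1 counts per library, against 3692 to 5255 in RetSat ko. Counting error is thus larger in control, and these percentages do not compare the genotypes. Scaling to Cdh1, the E-cadherin gene, gave 2.82% in RetSat ko, Krt8 6.36%, Epcam 8.31% and Krt18 8.55%, but Cdx1 gave 15.5%, Krt20 17.9% and Cdx2 18.9%, so that 5 of 8 epithelial markers tightened the Esr1 values and 3 did not. These ratios were added after the values were seen and carry no test. The sum of 8 epithelial markers was highest in RetSat ko 1 (14108 CPM) and lowest in RetSat ko 2 (8790 CPM), as was Esr1. In bulk tissue, fewer cells of a type and less RNA per cell cannot be told apart.

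**Figure D2:**
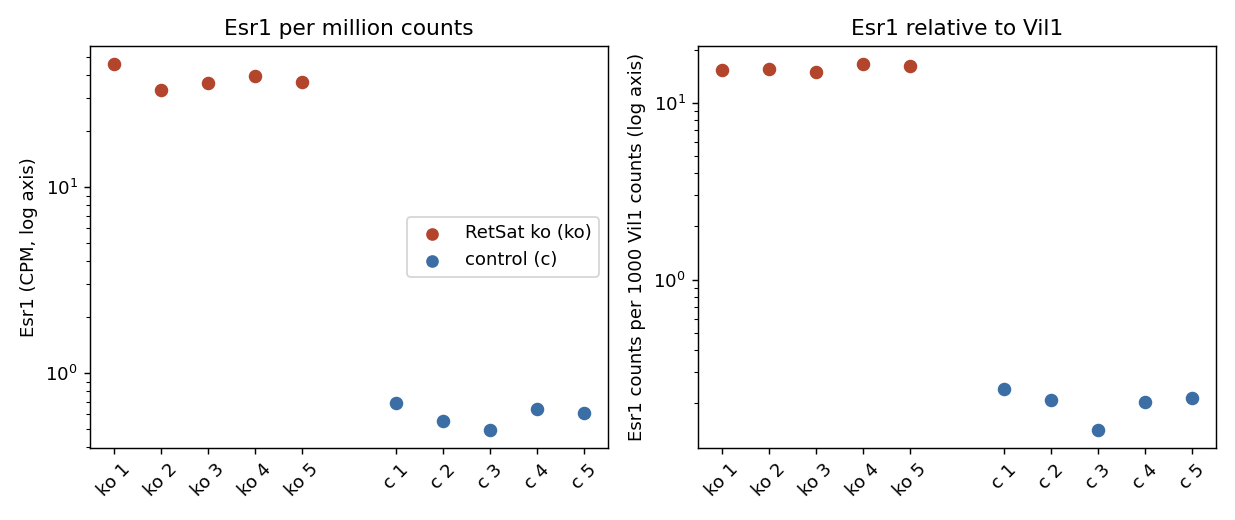
Esr1 in each library, on logarithmic axes, as CPM on the left and as counts per 1000 Vil1 counts on the right. RetSat ko libraries (ko) lie at 33.3 to 45.8 CPM and 15.0 to 16.6 per 1000 Vil1 counts, and control libraries (c) at 0.496 to 0.686 CPM and 0.141 to 0.240.

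The genes around Esr1 showed no such difference. Of 17 genes annotated within 500 kb of it, 8 had no count in any library and 9 were tested, of which 0 passed an adjusted p of 0.05 in edgeR, 0 had an unadjusted p under 0.05, and 0 were called by DESeq2 or limma-voom. DESeq2 gave no adjusted p to Ccdc170, Gm16153 and Gm21781, so it could not call them. Their log2 fold changes lay between -0.12 and 0.28, with adjusted p from 0.653 to 0.988. The nearest tested gene upstream, Ccdc170, a coiled-coil protein gene 49.4 kb away, had -0.040 ± 0.744 at only 205 counts over all libraries. Armt1 and Rmnd1, at 156.5 and 179.2 kb, had -0.023 ± 0.0615 and -0.019 ± 0.0742 with 26214 and 19900 counts. Downstream, Syne1, which encodes the nuclear envelope protein nesprin-1 and whose 3′ end lies 15.3 kb beyond the locus, had -0.12 ± 0.232. Farther upstream, Zbtb2 had -0.10, Gm16153 0.26, Gm21781 0.28, Akap12 0.14 and Mthfd1l 0.085. When 1 library was left out, Akap12 lay between 0.041 and 0.30 and Gm16153 between 0.087 and 0.63. The log2 fold change of Esr1 was 6.00 on the same scale.

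**Figure D3:**
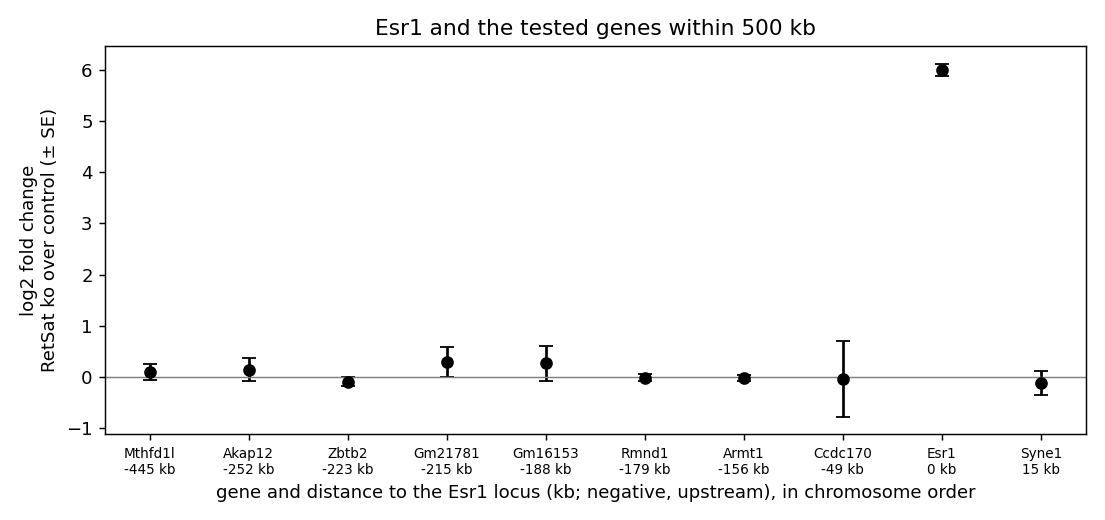
Log2 fold change of RetSat ko over control (± SE, edgeR, 5 libraries each) for Esr1 and the 9 tested genes within 500 kb, in chromosome order, with the distance to the Esr1 locus in kb under each name. Esr1 lies at 6.00 and the 9 other genes between -0.12 and 0.28.

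The other receptors for oestrogen were scarce in both genotypes. Esr2, oestrogen receptor beta (ENSMUSG00000021055.15, chromosome 12, 76167193 to 76224033, minus strand, GRCm39 as for all genes below), had 4 counts in all RetSat ko libraries together (2 in RetSat ko 2 and 2 in RetSat ko 4), against 2 counts in control (both in control 2). The exact 95% Poisson intervals of these sums, 1.09 to 10.2 counts in RetSat ko and 0.242 to 7.22 counts in control, overlap, and no fold change is given. Gm7862, a gene inside the Esr2 locus on the same strand that shares no exon base with it in the annotation, held 193 counts. Gper1, the membrane receptor (ENSMUSG00000053647.5, chromosome 5, 139408906 to 139413555, plus strand), was at 0.842, 0.973, 1.08, 0.944 and 0.923 CPM in RetSat ko 1 to 5, against 0.788, 0.683, 0.636, 0.501 and 0.864 CPM in control 1 to 5. All 5 RetSat ko libraries were above the control mean, but RetSat ko 1 was below control 5, so the groups overlapped. The log2 fold change of Gper1 was 0.46 ± 0.177 (SE, 95% interval 0.071 to 0.84), from 574 counts in RetSat ko and 394 in control. Gper1 lies within the locus of 3110082I17Rik on the opposite strand, with no exon base shared.

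The 3 oestrogen-responsive genes did not separate the genotypes as Esr1 did: their groups overlapped, and their log2 fold changes had both signs. Pgr (ENSMUSG00000031870.17, chromosome 9, 8899834 to 8968612, plus strand) encodes the progesterone receptor, whose transcription oestradiol induces in the uterus. It was at 0.274, 0.514, 0.395, 0.345 and 0.274 CPM in RetSat ko 1 to 5, against 0.389, 0.284, 0.0374, 0.414 and 0.202 CPM in control 1 to 5. The groups overlapped, and the lowest library was control 3. The log2 fold change of Pgr was 0.43 ± 0.448 (SE, 95% interval -0.54 to 1.41), resting on 4 to 57 counts per library. Without control replicate 3 it was 0.16, without control replicate 4 it was 0.65 and without RetSat ko replicate 2 it was 0.27. Control 3 also had the lowest sum of smooth muscle markers, 157.7 CPM against 443.8 to 567.6 CPM in controls 1, 2, 4 and 5, and the part of this in the Pgr value was not tested.

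Greb1 (ENSMUSG00000036523.17, chromosome 12, 16720616 to 16850887, minus strand) encodes a chromatin-bound cofactor of oestrogen receptor alpha in human breast cancer cells. It was at 8.57, 11.4, 9.93, 7.04 and 7.37 CPM in RetSat ko 1 to 5, against 10.8, 8.48, 8.53, 10.3 and 9.87 CPM in control 1 to 5. RetSat ko libraries were both the highest and the lowest. Its mean was 8.87 ± 1.83 CPM in RetSat ko and 9.60 ± 1.06 CPM in control (SD, n = 5 each), and the log2 fold change was -0.12 ± 0.137 (SE, 95% interval -0.41 to 0.18). It was -0.22 without RetSat ko replicate 2 and -0.043 without RetSat ko replicate 4. Within RetSat ko, the library with the least Esr1 (RetSat ko 2) had the most Greb1 and Pgr, and the library with the most Esr1 (RetSat ko 1) was at 8.57 and 0.274 CPM of them. With the genotype means taken off, Pearson's r with Esr1 over the 10 libraries was 0.025 for Greb1 and 0.44 for Pgr. These values pool both genotypes, and Esr1 in control rested on only 53 to 74 counts per library. A relation within the RetSat ko libraries alone was not tested. RetSat ko 2 also had the highest sums of pancreatic acinar and B cell markers, and the part of this was not tested. Greb1 shares 736 exon bases with Gm48140 on the opposite strand, which held 50 counts in all, against 10714 for Greb1. Of 9792 distinct 50-base stretches in Greb1 transcripts of GENCODE M21, 561 (5.73%) were also found in transcripts of other genes. That was the highest share in the set, with Esrra next at 1.49%.

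Nrip1 (ENSMUSG00000048490.15, chromosome 16, 76084288 to 76170715, minus strand) encodes RIP140, a ligand-dependent co-repressor of nuclear receptors that oestradiol induces in human breast cancer cells. It was at 71.9, 67.4, 54.5, 57.1 and 56.4 CPM in RetSat ko 1 to 5, against 76.1, 66.6, 83.5, 73.9 and 68.4 CPM in control 1 to 5. All 5 RetSat ko libraries were below the control mean, and the groups overlapped through RetSat ko 1 and 2. The log2 fold change was -0.26 ± 0.0920 (SE, 95% interval -0.46 to -0.063), the opposite sign to that of Esr1. Without the 4 libraries richest in pancreatic acinar transcripts (RetSat ko 1 and 2, control 4 and 5) it was -0.43.

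Esrra and Esrrg differed between genotypes by less than their standard error. Esrra (ENSMUSG00000024955.16, chromosome 19, 6888345 to 6899208, minus strand) was the most abundant gene of the set at 449.3, 370.5, 374.3, 333.8 and 320.8 CPM in RetSat ko 1 to 5, against 365.0, 350.0, 376.4, 359.6 and 383.6 CPM in control 1 to 5. RetSat ko covered a wider range on either side of control, with an SD of 50.1 CPM in RetSat ko and 13.3 CPM in control. Its log2 fold change was 0.011 ± 0.0924 (SE, 95% interval -0.19 to 0.21). Esrrg (ENSMUSG00000026610.14, chromosome 1, 187340988 to 187947082, plus strand) was at 3.97 to 5.69 CPM in RetSat ko and 3.30 to 5.33 CPM in control, with a log2 fold change of 0.030 ± 0.153 (SE, 95% interval -0.30 to 0.36). The sign of each was negative under 4 of 19 alternatives. The third receptor of this family, Esrrb, had 0.155 ± 0.0596 CPM in RetSat ko and 0.224 ± 0.0549 CPM in control (SD, n = 5 each), with a log2 fold change of -0.53 ± 0.317 (SE) and an edgeR adjusted p of 0.518. Esrra overlaps Trmt112 by 73 exon bases on the opposite strand, with 428241 counts for Esrra and 11920 for Trmt112.

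**Figure D4:**
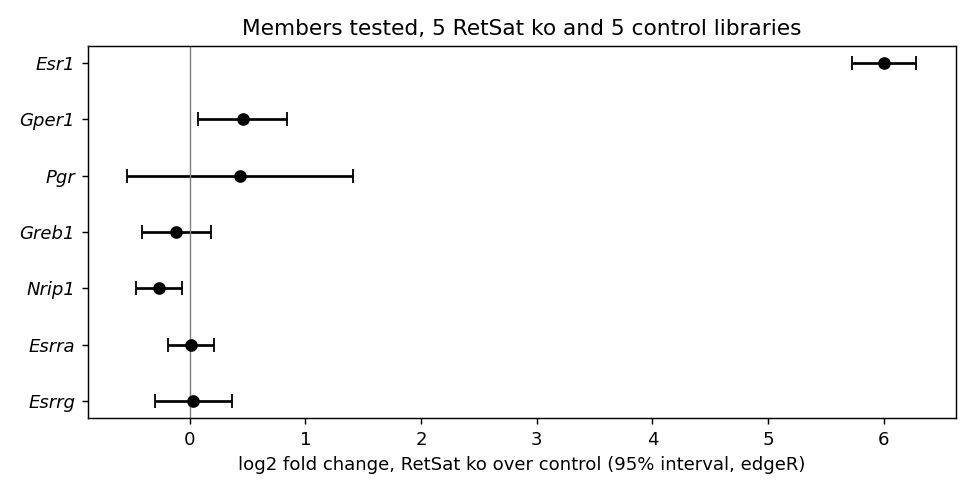
Log2 fold change of RetSat ko over control with its 95% interval (edgeR, 5 libraries each) for the 7 genes of the set that passed the filter on low counts. Esr1 lies at 6.00, and the other 6 lie between -0.26 (Nrip1) and 0.46 (Gper1).

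Of the 7 genes tested, 1 (Esr1) was called, by the choice of the set. Among all 18654 tested genes 6 were called by edgeR (0.0322%), and 0.0214% were called as higher in RetSat ko, so nothing is read from that count. The groups did not overlap for Esr1 alone of the 7 tested, against 2.31% of all tested genes. The median log2 fold change of the 6 other than Esr1 was 0.020 and that of all tested genes 0.020. In CPM per kilobase of exon, the order in control was Esrra (83.1), Nrip1 (6.43), Greb1 (1.00), Esrrg (0.723), Gper1 (0.274), Esr1 (0.0436), Pgr (0.0311) and Esr2 (0.000912), where the ranges of Esr1 and Pgr, and of Pgr and Esr2, overlapped and those of the other neighbours were apart. In RetSat ko Esr1 stood in the third place at 2.80 ± 0.347, between Nrip1 (5.36 ± 0.672) and Greb1 (0.926 ± 0.191), and the ranges of Greb1 and Esrrg overlapped there. By this measure Esr1 was above 56.6% of tested genes in RetSat ko and above 5.08% in control. The measure divides by all 13661 exon bases of Esr1, and gene counts do not record which of them held the reads. The level, place and share of Esr1 in RetSat ko therefore depend on how its reads lay over the gene.

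Other genes known from oestrogen biology were examined as 5 lists, in none of which edgeR called a gene. An unadjusted p under 0.05 was found for 2283 of all 18654 tested genes (12.2%). Of 32 further oestrogen-responsive genes 31 were tested, and 0 passed over all genes in either direction in edgeR, with 6 at an unadjusted p under 0.05 and 0 called by DESeq2 or limma-voom. Their median log2 fold change was 0.041, with 19 positive and 12 negative. Tff1, the trefoil peptide gene that is a standard oestrogen target in human breast cancer cells, did not pass the filter and averaged 0.00144 CPM in RetSat ko and 0.00558 CPM in control. The 4 genes with the smallest p were Myc, a growth-promoting transcription factor (18.1 ± 3.46 CPM in RetSat ko and 13.2 ± 1.93 CPM in control, log2 fold change 0.46), Prlr, the prolactin receptor (log2 fold change -0.28), Wnt4, a Wnt ligand (0.35), and Igf1, insulin-like growth factor 1 (0.37), with edgeR adjusted p from 0.300 to 0.364. Their groups overlapped in every case. When RetSat ko replicate 1 was left out, 2 of the list were called, Myc and the cyclin gene Ccnd1, and with that library absent 846 genes were called in all.

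Among the co-regulators and chaperones of these receptors, 25 of 26 were tested, and 0 were called in edgeR, 1 by DESeq2 and 0 by limma-voom, with 5 at an unadjusted p under 0.05 and a median log2 fold change of 0.015. The exception in DESeq2 was Safb, a nuclear matrix protein known as a co-repressor of oestrogen receptor alpha. Safb was at 69.7, 74.7, 70.2, 63.9 and 79.8 CPM in RetSat ko 1 to 5, against 54.1, 56.4, 58.0, 54.5 and 52.9 CPM in control 1 to 5. Every RetSat ko library was above every control library. The groups were apart, in either direction, for 1 of the 25 genes, against 2.31% of all tested genes. Its log2 fold change was 0.38 ± 0.0657, with an adjusted p of 0.134 in edgeR and 0.000785 in DESeq2, which called 123 genes in all. Its paralogue Safb2 had 0.17 (edgeR adjusted p = 0.469). The chaperone genes Ptges3 (p23) and Hsp90aa1, whose products hold steroid receptors ready for hormone, had 0.18 and 0.40, and Ppargc1a, the co-activator PGC-1 alpha that partners Esrra, had -0.33 (edgeR adjusted p from 0.327 to 0.359). Without RetSat ko replicate 1 edgeR called 3 of the list, Safb (0.39), Ppargc1a (-0.44) and the co-activator gene Ncoa2 (-0.35). Fkbp5 had the lowest log2 fold change of the list, -0.75 (edgeR adjusted p = 0.424), and was singled out after its value was seen.

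Enzymes and carriers of oestrogens were represented by 15 genes, 14 of them found and 11 tested, with 0 called by edgeR, DESeq2 or limma-voom and 3 at an unadjusted p under 0.05. Cyp19a1, the aromatase that makes oestrogens, did not pass the filter, with no count in RetSat ko and an average of 0.00345 CPM in control. Hsd17b11, a dehydrogenase of lipid droplets, averaged 630.2 ± 103 CPM in RetSat ko and 835.3 ± 139 CPM in control (SD, n = 5 each; log2 fold change -0.41, edgeR adjusted p = 0.314). Ugt2b34, a glucuronosyltransferase, and the peroxisomal enzyme gene Hsd17b4 had -0.31 and -0.34, and Hsd17b14 had 0.74 at 0.107 CPM in RetSat ko and 0.0631 CPM in control (edgeR adjusted p from 0.337 to 0.611). Without control replicate 3, Hsd17b4 was at -0.20 and Hsd17b14 at 1.16.

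Of the 18 symbols listed as targets of oestrogen-related receptors, 17 were tested and 0 were called by edgeR, DESeq2 or limma-voom, with 1 at an unadjusted p under 0.05. The list includes the receptor gene Esrrb itself, and the symbol not found is another name of a gene already listed. The median log2 fold change of the 17 was -0.080, with 3 positive and 14 negative, where 53.9% of all tested genes were positive. Esrrb (-0.53) is among the negative ones. Acadm, which starts the oxidation of medium-chain fatty acids and is a standard Esrra target, averaged 207.6 ± 14.8 CPM in RetSat ko and 236.4 ± 15.2 CPM in control (log2 fold change -0.19, edgeR adjusted p = 0.338). Cox6c, a subunit of cytochrome oxidase, had 0.21 (edgeR adjusted p = 0.424). Without RetSat ko replicate 1 the median was -0.18, and without RetSat ko replicate 2 it was -0.048. The sum of jejunal enterocyte markers was 49539 ± 8914 CPM in RetSat ko and 58121 ± 11247 CPM in control, and the part of this in the list was not tested.

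Of other steroid receptors and membrane progesterone-binding proteins, 5 genes were tested, and all had a negative log2 fold change, with a median of -0.21, and 0 were called by edgeR, DESeq2 or limma-voom, with 1 at an unadjusted p under 0.05. Nr3c1, the glucocorticoid receptor, averaged 145.5 ± 13.0 CPM in RetSat ko and 168.7 ± 7.69 CPM in control (log2 fold change -0.21, edgeR adjusted p = 0.314). Nr3c2, the mineralocorticoid receptor, had -0.30 and the membrane-bound Pgrmc1 -0.17 (edgeR adjusted p = 0.483 and 0.509). Nr3c2 was at -0.17 without control replicate 4, Pgrmc1 at -0.11 without control replicate 3, and the median of the 5 genes at -0.14 without control replicate 1.

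**Figure D5:**
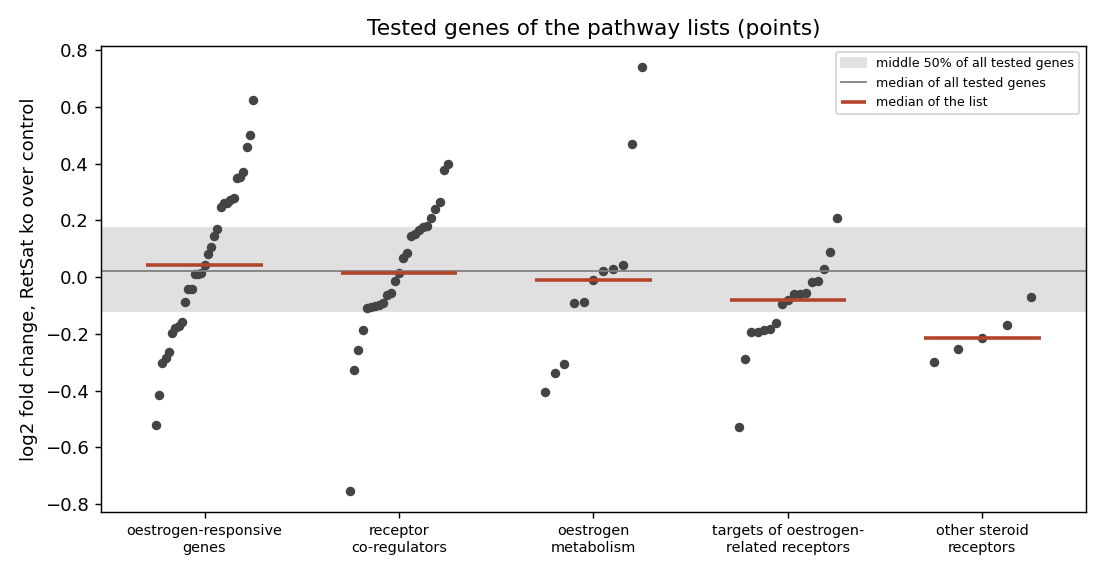
Log2 fold change of RetSat ko over control (edgeR) of every tested gene in 5 lists, with the median of each list as a red line. The grey band and line are the middle 50% (-0.12 to 0.17) and the median (0.020) of all 18654 tested genes; the medians of the lists lie between -0.21 and 0.041.

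Cell types that can carry these genes were measured alongside. Smooth muscle markers summed to 396.2 to 718.3 CPM in RetSat ko and 157.7 to 567.6 CPM in control, and fibroblast markers to 119.4 to 234.1 CPM in RetSat ko and 160.6 to 216.8 CPM in control. Enteric neuron and glia markers summed to 8.38 to 14.0 CPM in RetSat ko and 5.82 to 11.3 CPM in control, and endothelial markers to 27.4 to 51.0 CPM in RetSat ko and 40.0 to 47.6 CPM in control. Pancreatic acinar markers ranged from 8.08 to 2614 CPM in RetSat ko and from 7.70 to 245.0 CPM in control, and B cell markers from 8.64 to 118.7 CPM in RetSat ko and from 5.87 to 52.7 CPM in control. Adipocyte markers summed to 121.2 to 220.2 CPM in RetSat ko and 127.7 to 242.2 CPM in control, most of it Cidec, a lipid droplet protein gene (158.4 CPM in RetSat ko and 175.9 CPM in control). The other 5 adipocyte markers had positive log2 fold changes of 1.05 to 2.32 (edgeR adjusted p from 0.396 to 0.642), among them Adipoq at 3.12 ± 2.88 CPM in RetSat ko and 0.726 ± 1.09 CPM in control (SD, n = 5 each). None of the 10 sums of markers passed (two-sided exact permutation tests of 5 against 5 libraries, adjusted p from 0.748 to 0.929, the smallest possible unadjusted p being 0.00794). Without the 4 libraries richest in acinar markers the log2 fold change of Esr1 was 6.02, and without the 3 richest in B cell markers (RetSat ko 2 and 3, control 4) it was 6.11.

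The genes whose pattern over the 10 libraries was most like that of Esr1, by Pearson's r of log2 CPM, were Ybx1 (0.968), BC064078 (0.966), Txnl4a (0.961), Psph (0.935) and 2310009A05Rik (0.920). This likeness is set by the difference between the genotypes. After the mean of each genotype was taken off, the most similar were Cenpo (0.917), Gm20275 (0.902), Lipo3 (0.900), Tead3 (0.889) and Slc12a8 (0.878). The 6 other tested genes of the set had r between -0.10 (Gper1) and 0.44 (Pgr) by that measure. These are descriptions over 10 libraries that share depth and tissue composition. The genes named by likeness were picked as the highest of many, and such picking over 10 libraries can give a large r by itself.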

How the data were processed

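Each library has a deposited file of raw gene counts. The submitters' processing notes name Trimmomatic, STAR and GRCm39. Per the file headers, featureCounts 2.0.1 counted reads over exons of GENCODE M28, grouped by gene. No option for strand, read pairs or multiple alignments was given, so strand did not decide between a gene and its antisense partner. Symbols were matched by identifier for 52081 of 55414 genes (94.0%). Depth was 102844680 to 128730695 counts per library. Poisson intervals of summed counts reflect counting error alone. Intervals of log2 fold changes come from the edgeR fit and include the spread between libraries. Libraries were checked for duplicates and none was found (chi-square per degree of freedom at least 55.7 over 45 pairs).

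Counts were analysed in R 4.3.3 with filterByExpr, TMM factors and edgeR 4.0.16 (robust quasi-likelihood F-test of genotype alone). Adjusted p-values are Benjamini-Hochberg over 18654 genes, called under 0.05. On simulated counts for RetSat ko against control (18382 genes tested), 52% of genes changed 1.5-fold and 96% of those changed 4-fold were recovered, with 5 false calls among 171. The changed genes, 50 for each fold, were drawn from those above 1 CPM, so these shares do not cover Esr2, Pgr or Gper1. With 171 calls the adjustment is also less strict than with the 6 of the data, where recovery can be lower. Other settings tried were RLE or upper-quartile factors, no filter, 1 CPM in 5 libraries, DESeq2 1.42.0, limma-voom (limma 3.58.1), the replicate number as a block and leaving out each library. DESeq2 gave no adjusted p to some scarce genes, which it could not call. Among them were Gper1, Pgr, Hsd17b14, Esrrb, Ccdc170, Gm16153 and Gm21781. Leaving out libraries high in acinar or B cell markers, and scaling Esr1 to epithelial markers, were added after seeing the data. The members and gene lists were chosen with earlier results of these data known. Named were the members, the 4 genes of smallest p per list, the tested genes within 500 kb of Esr1, Retsat, Vil1 and the 5 genes of at least 1 CPM most like Esr1 by each measure (prior count 2). Genes named outside this rule are Safb2, Ccnd1, Ncoa2, Fkbp5, Tff1, Cyp19a1 and the epithelial and cell type markers. Some genes that the rule names are not reported here.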

Additional observations from a re-analysis of the deposited data

Results flagged for a closer look

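Among the 94 sets of 5 libraries examined (37 genes and 10 marker sums in each genotype), 10 held a library that stood apart from the other 4 of its group by more than the 95% limit for the gap, and chance alone gives about 1 in 20.

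Within the genes described, Esr2 was at 0.0154 CPM in control 2 and at 0 in the other control libraries, a matter of 2 counts. Retsat was at 33.4 CPM in RetSat ko 5, against 15.4 to 16.8 CPM in RetSat ko 1 to 4, while Esr1 in that library (36.8 CPM) was within the range of the others. Myc was as low as 9.88 CPM in control 2, with controls 1, 3, 4 and 5 at 13.4 to 14.8 CPM. Hsp90aa1 reached 327.1 CPM in control 4, with controls 1, 2, 3 and 5 at 176.1 to 205.1 CPM. Ccdc170, the nearest tested gene upstream of Esr1, was at 0.323 CPM in RetSat ko 1, against 0.112 to 0.165 CPM in the other RetSat ko libraries.

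Among the marker sums, RetSat ko 1 was the highest of its group for jejunal enterocytes (64983 CPM, against 42531 to 48596 CPM) and the lowest for endothelium (27.4 CPM, against 45.1 to 51.0 CPM). Pancreatic acinar markers stood at 2614 CPM in RetSat ko 2, against 8.08 to 470.9 CPM in the rest of its group. B cell markers stood at 118.7 CPM in RetSat ko 2, against 8.64 to 34.3 CPM, and at 52.7 CPM in control 4, against 5.87 to 11.3 CPM.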

How the results depend on the processing

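The log2 fold change of Esr1 lay between 5.93 and 6.11 over the 19 alternatives. The number of called genes, 6, was 123 with DESeq2 and from 5 to 846 when 1 library was left out, with 846 without RetSat ko replicate 1. DESeq2 called 1 co-regulator (Safb), and leaving out 1 library gave 0 to 3 called co-regulators and 0 to 2 called oestrogen-responsive genes, the highest numbers without RetSat ko replicate 1; the cause was not tested. The median of the responsive list was 0.17 without control replicate 4. Signs flipped for genes near Esr1 whose log2 fold change was close to 0 or poorly determined. Ccdc170 was at 0.98 with limma-voom, 0.33 with the replicate block, 0.966 without the libraries rich in acinar markers, 0.967 without those rich in B cell markers and from -0.37 to 0.70 when 1 library was left out. Rmnd1 was at 0.0022 with upper-quartile factors, 0.048 without the acinar-rich libraries and from -0.045 to 0.025 when 1 library was left out. Syne1 was at 0.070 without the acinar-rich libraries and from -0.28 to 0.023 when 1 library was left out. Gm21781 was at -0.019 and Armt1 at 0.0017 without the B cell-rich libraries, and when 1 library was left out they lay from -0.032 to 0.46 and from -0.045 to 0.00093, and Mthfd1l from -0.0013 to 0.21. Without the acinar-rich libraries Retsat was at -4.51 (edgeR adjusted p = 0.0918). With the replicate number as a block 4 genes were called and Esr1 was at 6.00. The deviations of same-numbered libraries from their group means had correlations of -0.15 to 0.0021. These cannot settle whether the numbers pair the samples, since tissue composition also moves single libraries, and the labels do not say. Esr2 counts are too few for any comparison, and Pgr rests on 4 to 57 counts per library.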
